A study of Mus musculus with 71 samples.

Results

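Among the probes that gave a bright signal in mouse cerebellum, 147 were chosen by how far arrays of the same group differed from each other. Illumina MouseRef-8 bead arrays were used, which read biotin-labelled RNA in 1 colour with 25697 probes. The intensities of each arm of the study were floored at 16, put on a log2 scale and quantile-normalized. Bright probes, 8533 in all, were detected (p under 0.01) on 36 or more of the 71 arrays and had a mean raw intensity over 300. The 150 with the largest SD within groups, pooled over 16 groups, were taken. Of 5 probes that the rule leaves out by name, 3 were among these. Of the 147 members, all but 8 carry 1 gene symbol, for 126 genes. Since the SD within groups chose the members, SDs, correlations and clusters are given below as description, without a test.

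All mice were C57BL/6 males and either Csbm/m (Csb below) or wild type (WT). Csbm/m animals are homozygous for a mutant allele of the gene for CSB, a chromatin remodeller of transcription-coupled DNA repair that is defective in Cockayne syndrome. In the diet arm, feeding began at 4 months, lasted 8 months and ended at 1 year. A high-fat diet (with fat as 60% of calories, mostly hydrogenated coconut oil) was given to 7 Csb and 4 WT, 40% caloric restriction to 6 Csb and 4 WT, resveratrol (100 mg per kg of chow) to 6 Csb and 5 WT, and the standard AIN-93G diet to 6 Csb and 4 WT. In the injection arm, mice aged 18 months (old) or 4 months (young) received nicotinamide riboside (NR, 500 mg per kg per day), a precursor of NAD+, or saline, daily into the peritoneum for 1 week. NR was given to 4 old Csb, 5 old WT, 3 young Csb and 4 young WT. Saline was given to 3 old Csb, 3 old WT, 3 young Csb and 4 young WT. The labels number the replicates without saying that each is a separate animal, so every p-value rests on the spread among arrays, which may be technical.

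The cerebellar cortex holds very many small granule cells, a single layer of large Purkinje cells, inhibitory interneurons and Bergmann glia. It roofs the fourth ventricle, where the choroid plexus, an epithelium that makes cerebrospinal fluid, secretes transthyretin (Ttr). The brainstem below it holds serotonergic raphe neurons, cholinergic neurons and, towards the spinal cord, cells that keep expressing Hox genes. RNA of a dissected cerebellum can therefore carry transcripts of neighbouring tissue, and in bulk samples fewer cells of a type and less RNA per cell cannot be told apart.

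Between 46.3% and 58.0% of probes were detected per array, and background intensity ran between 54.7 and 91.6. The median correlation between arrays of a group was 0.984 (old Csb saline) to 0.994 (old Csb NR), and no 2 arrays held identical values. No probe here is annotated to Ercc6, the gene for CSB, so the mutation was not analysed here. The markers of the labelled tissue were bright. Pcp2, a Purkinje cell protein, and Cbln1, the granule cell precursor of cerebellin, were members themselves, and Pcp2 was detected on all 71 arrays.

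The pooled SD of the members ran between 0.567 and 1.74 on the log2 scale, with a median of 0.684, against a median of 0.203 over the 8533 bright probes. The 10 largest belonged to Ttr (1.74), Hoxa5 (1.63), Tph2 (1.60), Hoxb5 (1.58), Pcp2 (1.32), Lcn2 (1.29), Slc6a4 (1.21), Cartpt (1.17), S100a8 (1.14) and Nrgn (1.08). At the limit the values were close together. Syne1 (0.572), Zbtb7a (0.5685) and Amn (0.567) were the last inside it, and St6galnac5 (0.567), Grasp (0.566) and Sertm1 (0.566) the first outside.

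The spread was uneven between groups. The median SD of the members was 1.11 in Csb mice and 1.08 in WT mice on the standard diet, 0.933 in Csb mice under caloric restriction and 0.860 in young WT mice after saline. It was 0.285 in old Csb mice after saline, 0.303 in WT mice under caloric restriction and 0.342 in old Csb mice after NR. All 8533 bright probes ranged less, with a median SD of 0.247 in Csb and 0.195 in WT mice on the standard diet, and 0.189 in old Csb mice after saline. Both standard-diet groups thus held the widest members, and 3 of the 4 comparisons made in the diet arm below take the Csb standard-diet arrays as their control.

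**Figure D1:**
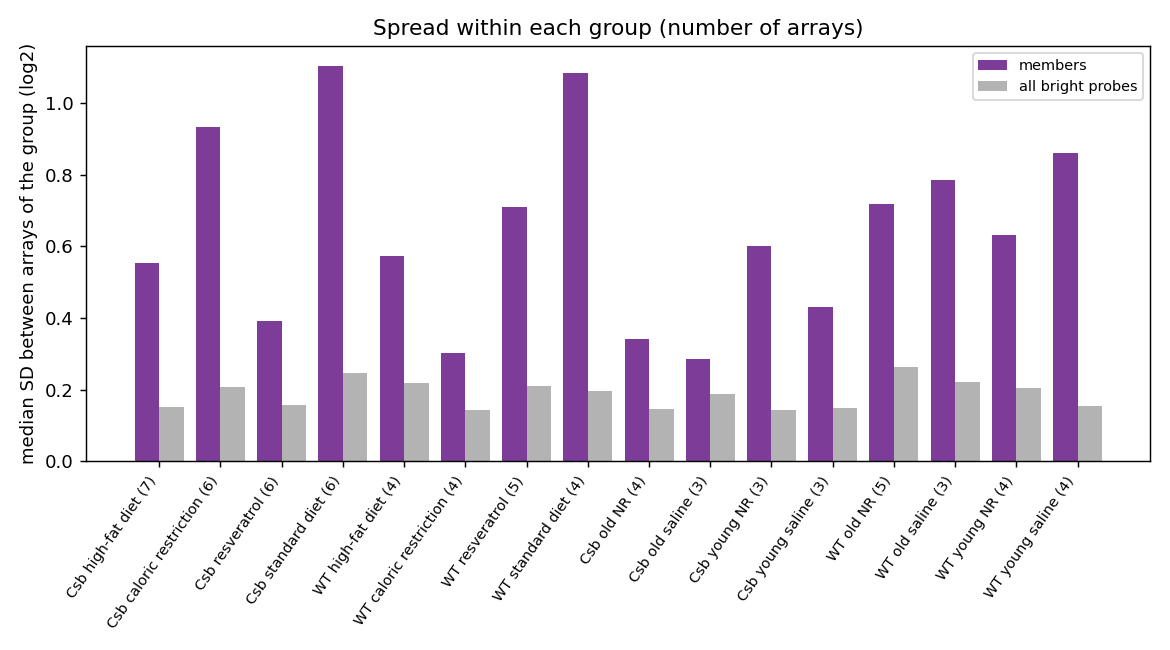
Median SD within each of the 16 groups, on the log2 scale, for the 147 members and for all bright probes. The members lie at 1.11 in Csb and 1.08 in WT mice on the standard diet and at 0.285 in old Csb mice after saline.

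Where 2 or 3 members were probes of 1 gene, they moved alike. This held for Actb, Atp2a3, AW551984, Camk2a, Cartpt, Etv1, Gabrd, Ly6h, Mef2c, Pde1a and Vxn, whose lowest correlation between probes, as deviations from group means over 71 arrays, was 0.90 (Camk2a). The 2 member probes of Zbtb18, a transcriptional repressor of neurons, correlated at 0.66 and fell into different clusters. All correlations below use the same deviations, share the 71 arrays and their normalization, and are descriptions.

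Members did not vary independently of each other. Over 10731 pairs the median absolute correlation was 0.352, with 24.2% of pairs over 0.5 and 11.6% under -0.5. Average-linkage clustering at a correlation of 0.5 gave 6 clusters of at least 4 probes that hold all but 20 members. Each is called here by its most variable gene. The Tph2 cluster holds 60 probes, the Pcp2 cluster 31, the Hoxa5 cluster 11, the Cacnb4 cluster 9, and the Ttr and Egr4 clusters 8 each. A further 11 members form 5 clusters of 2 or 3, and 9 stand alone.

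**Figure D2:**
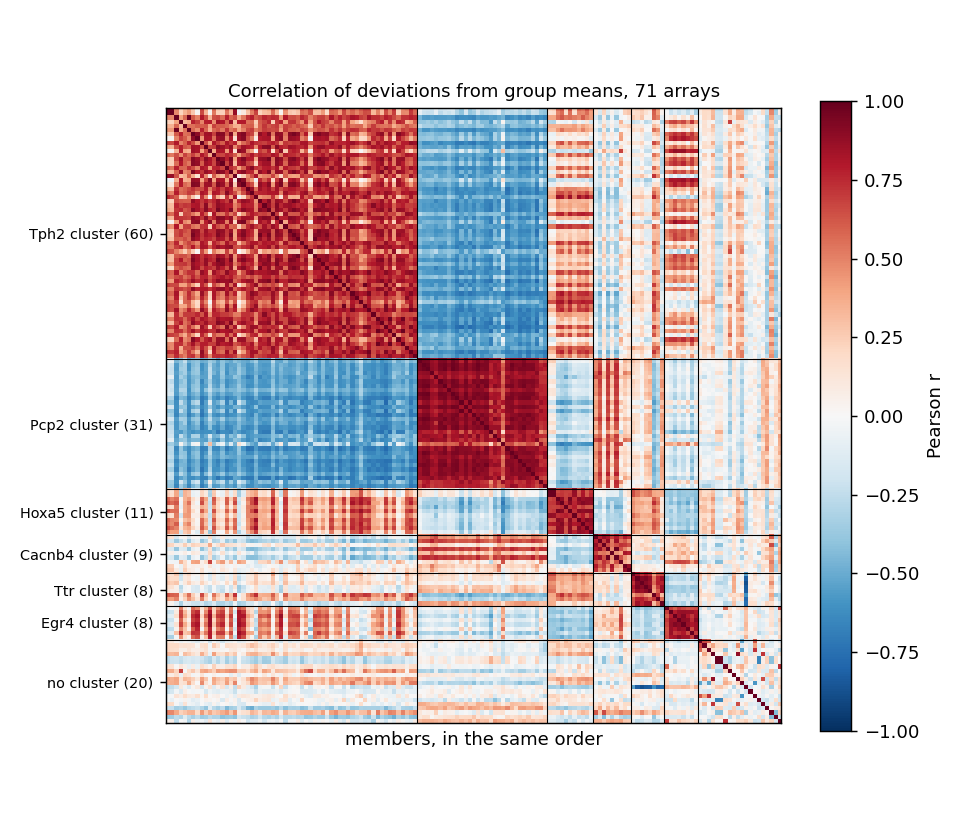
Correlation between the 147 members, as deviations from the group means over 71 arrays, ordered by cluster. The blocks on the diagonal are the 6 clusters, and the Tph2 block of 60 probes and the Pcp2 block of 31 lie mostly below 0 against each other.

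Of the 31 probes of the Pcp2 cluster, 8 are on the lists of Purkinje cells, granule cells or Bergmann glia. It holds the Purkinje cell genes Pcp2, Ppp1r17 (a phosphatase inhibitor) and Rgs8 (a regulator of G protein signalling). It also holds the granule cell genes Zic1 and Zic2 (zinc finger factors), Neurod1 (a neurogenic transcription factor) and Cbln1, and Gdf10, a growth factor of Bergmann glia. The mean correlation within it was 0.839. Il20rb (0.980), Il16 (0.978), 2 probes of the calcium pump Atp2a3 (0.974 and 0.973), Crtam (0.974) and Cbln1 (0.970) followed the rest of the cluster most closely.

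Pcp2 was at or below 9.01 on 4 arrays and at or above 11.32 on the other 67. The 4 were WT standard-diet replicate 1 (6.14), Csb caloric restriction replicate 6 (7.68), and Csb standard-diet replicates 3 (8.76) and 1 (9.01). Crtam, Il20rb and Il16 had a gap of the same kind, with 4 arrays below it and 67 above. Over the whole cluster these 4 arrays lay below their group means by 2.26, 2.41, 1.93 and 1.76 on the log2 scale. All 31 probes were lower on Csb caloric restriction replicate 6 and Csb standard-diet replicate 1, and 30 of 31 on the other pair.

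Marker probes outside the members showed how far this reached. Over 71 arrays the mean of 7 other granule cell probes correlated with the Pcp2 cluster at 0.949 (rho 0.946), and that of 9 other Purkinje cell probes at 0.733 (rho 0.806). The 7 include a Gabra6 probe that the rule leaves out by name and that correlated with Pcp2 at 0.933. The value is therefore not independent of the selection. On Csb caloric restriction replicate 6 the other granule cell probes lay 1.12 below their group means on average, and the other Purkinje cell probes 0.19 below. The same means were -1.34 and -0.20 on Csb standard-diet replicate 3, -0.90 and -0.35 on WT standard-diet replicate 1, and -0.77 and -0.06 on Csb standard-diet replicate 1. On all 4 arrays the mean of these granule cell probes lay further below than that of these Purkinje cell probes. In the order given, 6, 7, 6 and 4 of the 7 granule cell probes were lower than their group means. Of the 9 Purkinje cell probes 6, 6, 5 and 4 were lower. Members on these lists, Pcp2 among them, are left out of these means. The means therefore do not show that granule cell transcripts fell more than Purkinje cell transcripts.

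Of the 60 probes of the Tph2 cluster, 8 are on the forebrain or brainstem neuron lists. Probes outside the members correlated with the cluster mean at 0.54 (forebrain), 0.52 (brainstem), 0.66 (microglia), 0.70 (lipid metabolism) and -0.72 (Purkinje cells). Tph2 makes serotonin in raphe neurons and Slc6a4 takes it up again. Nrgn, Camk2a, Tac1, Rprm and Lmo3 are on the forebrain neuron list, the neuropeptides Cartpt and Sst on the list of Golgi, stellate, basket and unipolar brush cells, and Serpina3n, a protease inhibitor of reactive astrocytes, on the gliosis list. Gpr83 (0.949), Pnma2 (0.937), Lmo3 (0.936), Syt16 (0.929), Ly6h (0.927) and Cpne6 (0.926) followed the other 59 probes most closely. The mean correlation was 0.671, and it was 0.798 in the injection arm and 0.587 in the diet arm.

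Tph2 varied without a gap, between 5.25 (young WT NR replicate 1) and 12.39 (Csb high-fat replicate 3) with a median of 9.34. Groups of 1 treatment spanned much of this range. In young WT mice after saline Tph2 was at 10.04, 5.66, 8.52 and 5.36, and in WT mice on the standard diet at 6.48, 11.80, 8.93 and 11.03. Only in old Csb mice after saline (10.94, 11.29 and 11.02) did all arrays lie within 1 log2 unit, of the 16 groups. Tph2 and Slc6a4 correlated at 0.98 over 71 arrays. On Csb caloric restriction replicate 3 all 60 probes of the cluster were lower than their group means, by 1.56 on average.

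The Hoxa5 cluster holds the posterior patterning genes Hoxa5 and Hoxb5, which correlated at 0.99, and genes of cholinergic neurons. Chat makes acetylcholine and Slc5a7 takes up choline, and they correlated at 0.96. Glra1 (a glycine receptor subunit, 0.928), Sncg (synuclein gamma, 0.903), Chat (0.903), Slc5a7 (0.888), Gbx2 (a hindbrain homeobox factor, 0.884) and Hoxb5 (0.866) followed the rest of the cluster most closely. The mean of 20 other probes on the list of brainstem, midbrain and deep nuclei neurons correlated with the cluster at 0.928, and 14 astrocyte and 17 oligodendrocyte probes at 0.793 and 0.778.

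Hoxa5 ran between 4.48 (Csb high-fat replicate 6) and 11.69 (Csb standard-diet replicate 3) with a median of 9.68, and it was not detected on 11 arrays. In WT mice on the high-fat diet it was at 5.01, 10.57, 10.95 and 8.47, and in old WT mice after NR at 11.28, 9.13, 4.88, 6.85 and 10.28. Csb mice were as split on the standard diet (4.54, 6.14, 6.47, 8.53, 10.29 and 11.69 in order of size), but all 6 resveratrol arrays of Csb mice lay between 9.58 and 10.94. No array deviated from its group by more than 2.5 SD over this cluster, whose array means vary most (SD 0.936).

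Of the 8 probes of the Ttr cluster, 5 are on the choroid plexus list, and the others are Ecrg4, Dlk1 and the unnamed ILMN_2617005. Ttr carries thyroid hormone, Kl is klotho, Sostdc1 a secreted regulator of BMP and Wnt signals, Kcne2 a potassium channel subunit, Clic6 a chloride channel protein and Ecrg4 a secreted peptide precursor. Their correlations with the rest of the cluster were 0.967 for Kl, 0.934 for Kcne2, 0.918 for Sostdc1, 0.876 for Ecrg4, 0.802 for Clic6 and 0.787 for Ttr. Another 11 choroid plexus probes correlated with the cluster at 0.944 (rho 0.909). They include an Aqp1 probe that the rule leaves out by name and that correlated with Ttr at 0.783, so this value is not independent of the selection.

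Ttr, with the largest SD of all, was between 13.99 and 15.22 on 62 arrays and at or below 11.99 on the other 9. The lowest were young WT saline replicate 4 (6.39), old WT saline replicate 3 (7.18), Csb standard-diet replicate 1 (8.23) and Csb high-fat replicate 6 (9.29). Csb standard-diet replicates 4 (10.41) and 6 (10.98), WT standard-diet replicate 1 (11.03) and Csb caloric restriction replicates 6 (11.32) and 3 (11.99) made up the rest. Kl was not detected on 6 arrays, all among these 9. On the 9 arrays Hoxa5 was between 4.48 and 7.29, and 7 of the 11 arrays that did not detect Hoxa5 were among them, while Pcp2 covered 6.14 to 14.4. Low Ttr therefore came with low Hoxa5 on these arrays and with both low and high Pcp2.

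The Cacnb4 cluster holds Cacnb4 (a calcium channel subunit, 0.952 with the rest), Pcdh9 (a protocadherin, 0.840), 1 probe of Zbtb18 (0.822), both probes of Etv1 (an ETS transcription factor of granule cells, 0.818 and 0.792), Ddx6 (an RNA helicase, 0.775), Cplx2, Gpm6a and Zbtb7a. Its mean correlation was 0.640, and 0.689 in the diet arm against 0.288 in the injection arm. Another probe of Cacnb4 that is not a member correlated with the member at 0.26. The cluster mean correlated at 0.551 (rho 0.510) with 7 granule cell probes outside the members and at 0.514 (rho 0.497) with the mean of the Pcp2 cluster. With the background intensity of the array it correlated at -0.451 (rho -0.338), the most negative value of the 6 clusters. The Pcp2 cluster came next, at -0.326 (rho -0.304). Cacnb4 was lowest on Csb standard-diet replicate 3 (5.59), which had the highest background (91.6), then on WT standard-diet replicate 1 (6.66), Csb resveratrol replicate 1 (7.19), Csb caloric restriction replicate 4 (7.79) and WT resveratrol replicate 1 (7.85). What part background has in this was not tested.

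The Egr4 cluster holds the transcription factor Mef2c (2 probes), Arpp21 (a cyclic AMP regulated phosphoprotein), Rprml, Syne1 (a nuclear envelope spectrin), Rasgrp1 (an activator of Ras), the neuropeptide Cck and Egr4, an immediate early transcription factor. Correlations with the rest of the cluster were 0.941 and 0.868 for Mef2c, 0.935 for Arpp21, 0.912 for Rprml, 0.888 for Syne1 and 0.881 for Rasgrp1. Unlike the other clusters it stood out by high arrays. WT standard-diet replicate 1 and Csb standard-diet replicate 4 lay 1.79 and 1.99 above their group means, with all 8 probes higher on both. Egr4 itself was at 12.20 and 11.05 there, against 8.90 to 9.83 on the other WT and 7.54 to 10.42 on the other Csb standard-diet arrays. The mean correlation of the cluster was 0.844 in the diet arm and 0.447 in the injection arm. Outside the members, 6 forebrain neuron probes correlated with the cluster mean at 0.635 (rho 0.448) and 16 immediate early probes at 0.443 (rho 0.340). For 2 muscle probes the value was 0.537, and for 20 brainstem probes -0.481.

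The cluster means were also set against each other. The means of the Tph2 and Pcp2 clusters correlated at -0.676 over 71 arrays (rho -0.792; -0.653 without the 2 arrays farthest from the median), at -0.706 in the diet arm (42 arrays) and at -0.939 in the injection arm (29 arrays). Over the 60 arrays that do not stand out in any cluster the value was -0.772. For the Pcp2 and Hoxa5 clusters the value was -0.213 over all arrays (rho -0.481; -0.454 without the 2 farthest arrays), -0.03 over the diet arrays, -0.921 over the injection arrays and -0.743 over those 60, so it changed with a few arrays. For Tph2 and Hoxa5 it was 0.415 over all 71, 0.00 for diet, 0.833 for injection and 0.632 over the 60. Hoxa5 and Ttr correlated at 0.548, and at 0.095 over the 60. The difference between arms was not tested. Quantile normalization sets the same distribution on every array of an arm, and its part in negative correlations was not tested either.

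Arrays stood out where their mean deviation over a cluster was beyond 2.5 SD of all such means. This was so for 11 arrays of 8 groups, 2 of them in more than 1 cluster. WT standard-diet replicate 1 was low in the Pcp2 cluster (-2.26) and the Cacnb4 cluster (-1.44, 8 of 9 probes) and high in the Egr4 cluster (1.79). Csb standard-diet replicate 3 was low in the Pcp2 (-1.93) and Cacnb4 (-2.05) clusters. The other stand-outs in the Cacnb4 cluster were Csb resveratrol replicate 1 (-1.84) and WT resveratrol replicate 1 (-1.57). In the Ttr cluster they were young WT saline replicate 4 (-2.43), Csb high-fat replicate 6 (-2.39) and old WT saline replicate 3 (-2.20), with all 8 probes low on each. On these 3 arrays 11 of 11 choroid plexus probes outside the members were lower than their group means as well, by 1.42, 1.55 and 1.30 on average. Other lists were low there too, with 17, 17 and 19 of 20 brainstem probes, 16, 15 and 16 of 17 oligodendrocyte probes and 12, 13 and 12 of 14 meningeal probes below their group means.

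**Figure D3:**
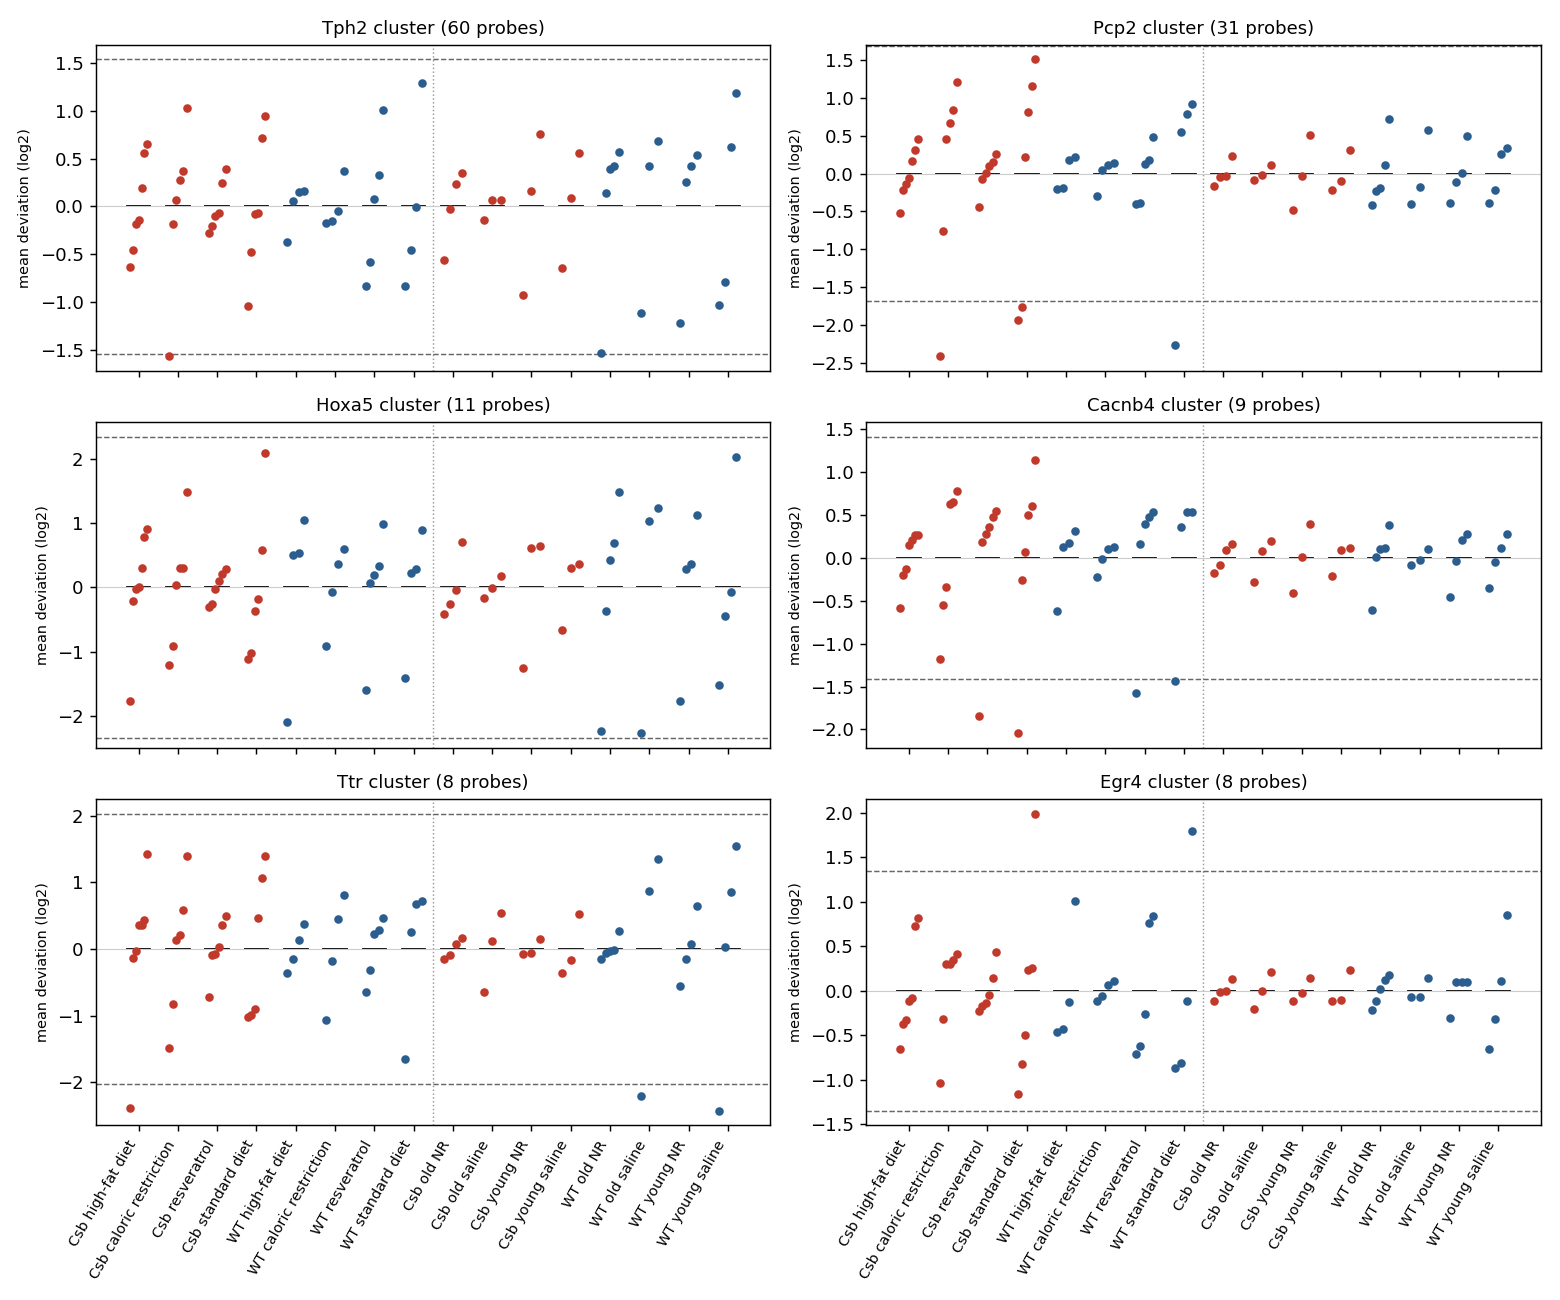
Mean deviation of each of the 71 arrays from its group mean, on the log2 scale, over each of the 6 clusters, with dashed lines at 2.5 SD. The lowest points are young WT saline replicate 4 in the Ttr cluster (-2.43) and Csb caloric restriction replicate 6 in the Pcp2 cluster (-2.41).

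**Figure D4:**
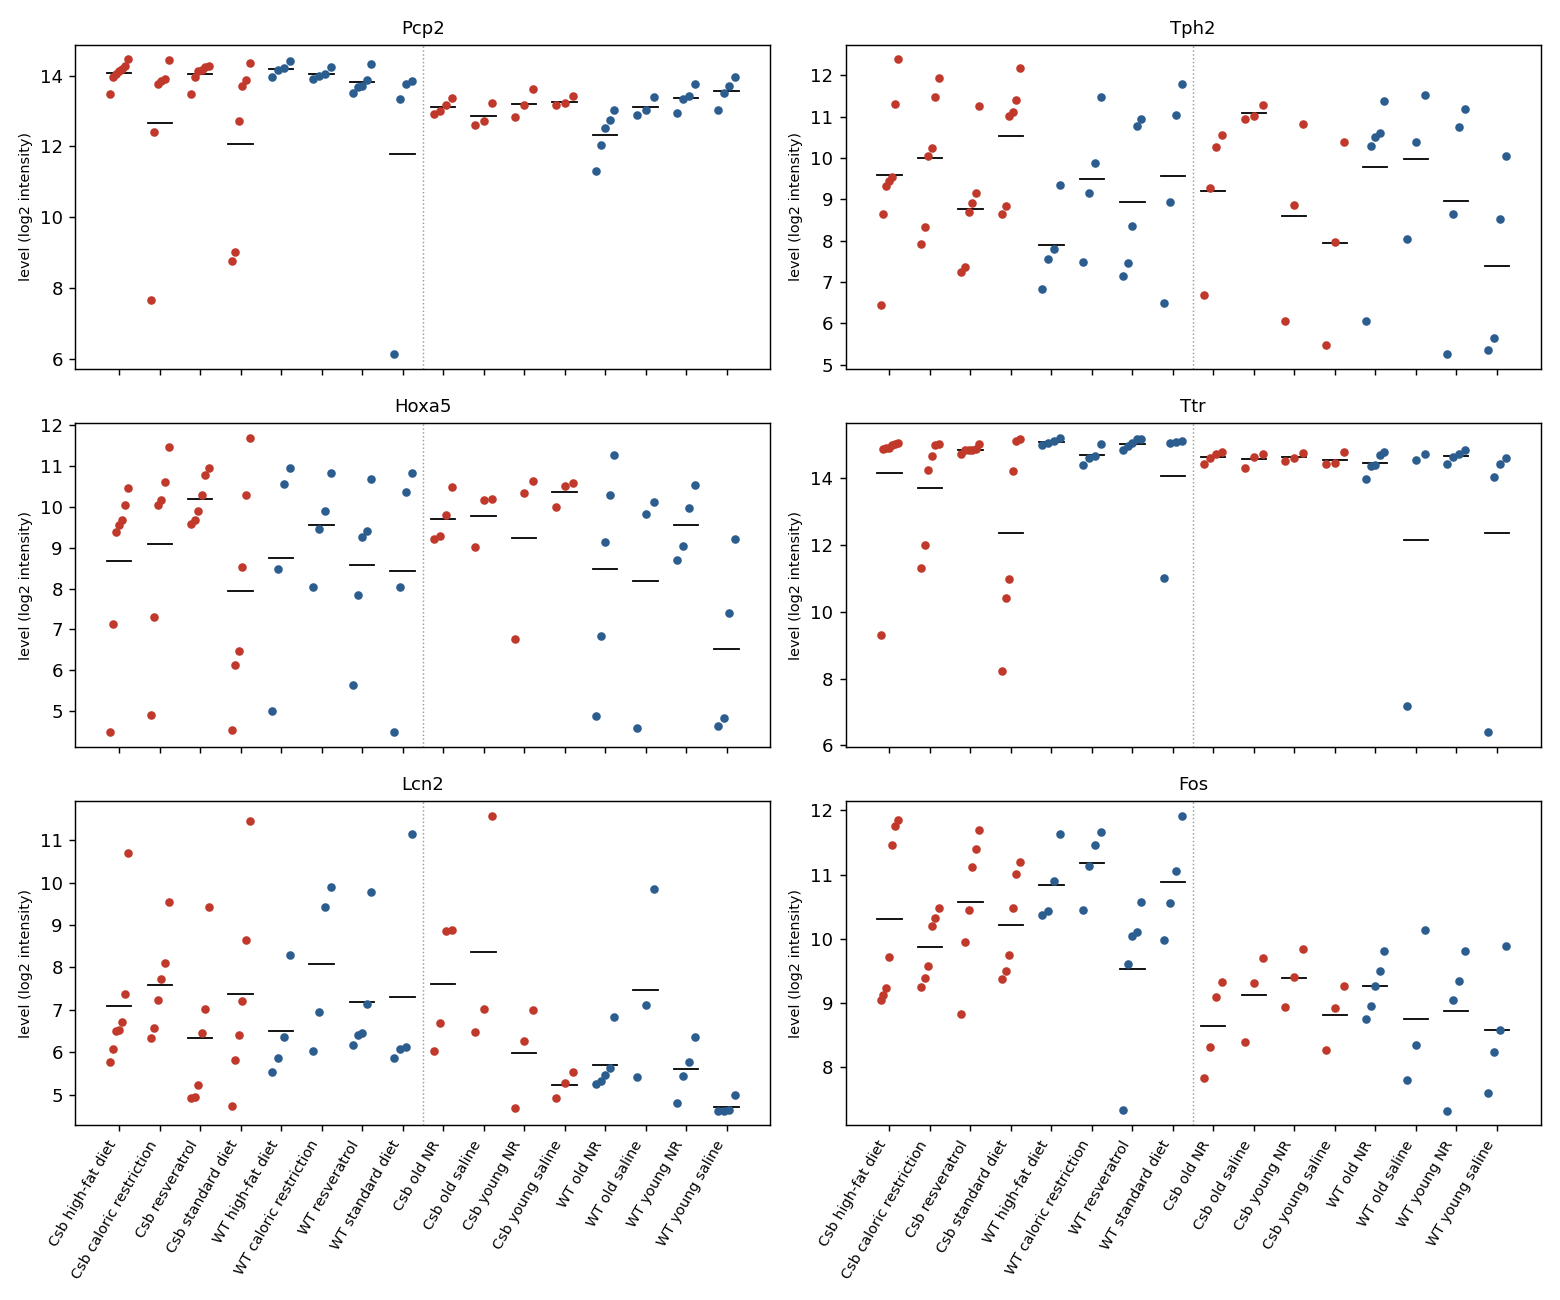
Log2 normalized levels of Pcp2, Tph2, Hoxa5, Ttr, Lcn2 and Fos on every array, by group. Pcp2 and Ttr are near their highest level on most arrays with 4 and 9 arrays far below, and Tph2 and Hoxa5 spread over their whole range.

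Smaller clusters are described next. Alas2 (haem synthesis), Hbb-bt (beta globin) and Slc4a1 (the red cell anion exchanger) had a mean correlation of 0.749. Their mean was lowest on young WT NR replicate 1 (-1.65 from the group mean) and highest on old WT NR replicate 5 (1.46). Lcn2 (lipocalin, an acute phase protein) and S100a8 (a neutrophil calcium-binding protein) correlated at 0.66, and Lcn2 with Pglyrp1, an antibacterial protein of neutrophils and no member, at 0.73. Lcn2 was not detected on 25 arrays and reached 11.57 on old Csb saline replicate 3, against 6.48 and 7.03 on the other arrays of that group, 11.45 on Csb standard-diet replicate 3 and 11.14 on WT standard-diet replicate 4. On old Csb saline replicate 3 S100a8 (12.01), Plin4 (11.17) and Cdkn1a (12.21) also had the highest values of their group.

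Plin4, a lipid droplet protein, and Cdkn1a, an inhibitor of the cell cycle, correlated at 0.73. Both are on the glucocorticoid response list, as is Lcn2. Plin4 followed Mfsd2a at 0.84 and Sult1a1 at 0.80, neither of which is a member. No member came from the lists of microglia, endothelial and mural cells, meninges, circadian clock, heat shock, interferon response, lipid metabolism, ribosomal proteins (62 bright probes) or histones (34 bright probes). In all 43 members are on a list.

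Fos and Nr4a2, both immediate early transcription factors, correlated at 0.72, Fos with Dusp1 (a phosphatase and no member) at 0.86, and Nr4a2 with Egr4 at 0.69. Fos was at 11.75, 11.46 and 11.85 on Csb high-fat replicates 3, 5 and 6, against 9.05 to 9.71 on the other 4 arrays of the group. Their promoters are shown because these genes answer to cyclic AMP and calcium within minutes, through a response element with the core TGACG. The 250 bases before the start of each gene (RefSeq, GRCm38.p6) follow, with the core on either strand in capitals. They lie at chr12:85473640-85473889 on the plus strand (Fos), chr2:57124004-57124253 on the minus strand (Nr4a2) and chr6:85513590-85513839 on the minus strand (Egr4).
Fos: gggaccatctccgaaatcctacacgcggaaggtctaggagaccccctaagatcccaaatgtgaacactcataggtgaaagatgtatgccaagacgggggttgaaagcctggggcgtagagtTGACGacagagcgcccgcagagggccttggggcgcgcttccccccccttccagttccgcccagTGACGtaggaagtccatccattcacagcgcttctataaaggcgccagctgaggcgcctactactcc
Nr4a2: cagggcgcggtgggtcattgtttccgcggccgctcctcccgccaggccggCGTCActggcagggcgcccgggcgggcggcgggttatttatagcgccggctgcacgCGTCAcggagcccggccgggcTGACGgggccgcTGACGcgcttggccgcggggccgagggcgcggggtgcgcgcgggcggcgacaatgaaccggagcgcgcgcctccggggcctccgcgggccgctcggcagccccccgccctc
Egr4: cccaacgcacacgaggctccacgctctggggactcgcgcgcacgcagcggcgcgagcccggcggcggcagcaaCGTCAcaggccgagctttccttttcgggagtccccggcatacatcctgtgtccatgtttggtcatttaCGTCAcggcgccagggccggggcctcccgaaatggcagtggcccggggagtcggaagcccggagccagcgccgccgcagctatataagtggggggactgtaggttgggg
The core, as TGACG or its reverse complement CGTCA, occurs 2 times in Fos, 4 times in Nr4a2 and 2 times in Egr4. Of 32851 promoters of this length, 17.8% hold it at least once. A match describes these letters and shows no binding.

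Some members moved apart from other probes of their gene. The 2 member probes of Actb, the gene for beta actin, correlated at 0.997 with each other and, for 1 of them, at 0.78, -0.16 and 0.14 with the other 3 Actb probes. The Mbp member (myelin basic protein) correlated at 0.64 and 0.03 with the other Mbp probes and at a median of 0.24 with 17 other oligodendrocyte probes, but at 0.91 with Acot7 and 0.89 with Chga, a neuroendocrine granule protein. Opalin, a myelin protein, correlated at 0.86 with Pllp and 0.71 with Mog, both of myelin, and at 0.29 with the Mbp member. Sh3glb2 owed its place to 1 array. Its level was 4.47 on young WT NR replicate 4, where it was not detected (detection p 0.861), and 10.92 to 11.74 on the other 70, and its pooled SD was 0.119 without that array, against 0.671 with it.

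Differences between group means did not choose the members, and 7 comparisons were tested with limma (moderated test, two-sided, Benjamini-Hochberg over all probes kept in the arm, called at an adjusted p under 0.05). With SDs this large the members' standard errors were wide, with a median of 0.451 to 0.549 per comparison, against 0.138 to 0.202 over all probes tested. High-fat diet, resveratrol and caloric restriction in Csb mice were each set against the same 6 Csb standard-diet arrays.

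In Csb mice on the high-fat diet a smaller share of the members was called than of all probes tested. Called probes of the Pcp2 and Cacnb4 clusters were higher, and Vgf was lower. The count depended on single arrays and on background, as given below. Of the members 13 rose and 5 fell (12.2%), against 17.1% of all 14883 probes tested, 8.43% higher and 8.67% lower. The median log2 fold change was -0.31 over the members and 0.01 over all probes. In the Pcp2 cluster 8 of 31 probes rose, in the Cacnb4 cluster 3 of 9 and in the Ttr cluster 1 of 8, while 2 of 60 fell in the Tph2 cluster and 2 of 11 in the Hoxa5 cluster.

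Vgf, the precursor of several neuropeptides, had a lowest, median and highest level of 8.88, 9.65 and 10.57 in Csb mice on the high-fat diet, against 10.44, 11.14 and 12.07 on the standard diet. Only the highest high-fat array reached into the standard-diet range. Vgf fell by 1.53 ± 0.27 on the log2 scale (SE, n = 7 and 6; limma adjusted p 0.00073). This call held in each of the 13 fits that left out 1 array and under all 9 alternatives tried. Among these 9, the deposited z-scores were entered under 2 names and give the same fit. Neurod1 was at 9.43, 10.75 and 11.22 on the high-fat diet, against 6.00, 9.02 and 10.10 on the standard diet. It rose by 2.22 ± 0.61 (limma adjusted p 0.0118) with overlapping ranges. Its 2 lowest standard-diet arrays, replicates 3 (6.00) and 1 (6.31), are those that were low in the Pcp2 cluster.

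Ppp1r17 (1.97 ± 0.60, adjusted p 0.0224), 1 probe of Zbtb18 (1.85 ± 0.56, adjusted p 0.0228) and both Etv1 probes (1.82 ± 0.47, adjusted p 0.00854, and 1.68 ± 0.46, adjusted p 0.0117) also rose by limma. Slc5a7 (-1.32 ± 0.47, adjusted p 0.0468), the unnamed probe ILMN_3161105 (-1.14 ± 0.39, adjusted p 0.0409), Erdr1 (-0.95 ± 0.34, adjusted p 0.0498) and Rgs4, a regulator of G protein signalling (-0.91 ± 0.26, adjusted p 0.0166), fell by limma. Besides Vgf, only 1 Etv1 probe of the 10 named was called in each of the 13 fits without 1 array, and Neurod1 lost its call without Csb standard-diet replicate 3. The count of 18 was 3 without Csb standard-diet replicate 3 and 10 without replicate 1, and 30 and 29 without replicates 5 and 6. It was 10, 11 and 10 without Csb high-fat replicates 2, 3 and 7. Without the arrays that stood out it was 3, with background intensity as a covariate 2 and with the replicate number as a block 10. The 13 granule cell probes summed to 141.5 to 150.6 on high-fat arrays, against 111.7 to 143.7 on standard-diet arrays, and 13 forebrain neuron probes to 108.2 to 121.4 against 109.3 to 135.9. These sums include members, 6 of the granule cell and 7 of the forebrain probes. Neurod1 and both Etv1 probes, called here, are among them, so the sums are not independent of the calls. What part such shifts have in the calls was not tested.

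In Csb mice on resveratrol the share of members called was a little above that of all probes tested. Called probes of the Tph2 cluster were lower, and those of the Pcp2 and Ttr clusters higher. This count also depended on single arrays and on background, as given below. Of the members 11 rose and 13 fell (16.3%), against 13.5% of all 14883 probes tested, 7.35% higher and 6.15% lower. The median log2 fold change was -0.48 over the members and 0.00 over all. In the Tph2 cluster 11 of 60 probes fell, and 5 of 31 rose in the Pcp2 cluster, 2 of 9 in the Cacnb4 cluster and 3 of 8 in the Ttr cluster. Of all 147 members, 7 had groups that did not overlap, against 4.57% of all probes tested.

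Fibcd1, a membrane receptor for acetylated groups, had a lowest, median and highest level of 7.34, 7.65 and 7.97 in Csb mice on resveratrol, against 8.21, 9.16 and 10.49 on the standard diet. The groups did not overlap, and Fibcd1 fell by 1.55 ± 0.39 (SE, n = 6 each; limma adjusted p 0.0094). It kept this call in all 12 fits without 1 array and lost it with background intensity as a covariate. Bcl11b, a transcription factor of forebrain projection neurons, was at 7.27, 8.04 and 8.40, against 8.64, 9.36 and 11.73, again without overlap. It fell by 1.63 ± 0.52 (limma adjusted p 0.0335), and 7 of the 12 fits without 1 array no longer called it. Vgf was at 9.52, 10.08 and 10.29, against 10.44, 11.14 and 12.07 on the standard diet, and fell by 1.22 ± 0.28 (limma adjusted p 0.00509).

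Enc1 (-1.50 ± 0.46, adjusted p 0.029), Rprm (-1.41 ± 0.47, adjusted p 0.0386) and Lmo3, a transcription cofactor (-1.35 ± 0.41, adjusted p 0.0252), fell by limma as well. Neurod1 (2.28 ± 0.63, adjusted p 0.015), Kcne2 (2.21 ± 0.68, adjusted p 0.0288), Ppp1r17 (2.08 ± 0.62, adjusted p 0.0248), Ecrg4 (1.65 ± 0.53, adjusted p 0.0334) and 1 probe of Etv1 (1.65 ± 0.49, adjusted p 0.0233) rose by limma. The Etv1 probe turned to -0.11 with background intensity as a covariate (limma adjusted p 0.946). Of the 10 probes named by size, only Fibcd1 was called in each of the 12 fits without 1 array. The count of 24 was 10, 14 and 38 without Csb standard-diet replicates 1, 3 and 6, and 13 and 12 without Csb resveratrol replicates 3 and 5. It was 5 without the arrays that stood out and 1 with background intensity as a covariate. Forebrain neuron probes summed to 105.01 to 110.98 on resveratrol arrays, against 109.3 to 135.9 on standard-diet arrays. Granule cell probes summed to 142.6 to 149.3 against 111.7 to 143.7, and choroid plexus probes (16) to 124.96 to 146.2 against 102.8 to 136.7. These sums include 7 forebrain, 6 granule cell and 5 choroid plexus members. Rprm, Lmo3, Neurod1, Etv1 and Kcne2, called here, are among them, so the sums are not independent of the calls. The part of these shifts was not tested.

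**Figure D5:**
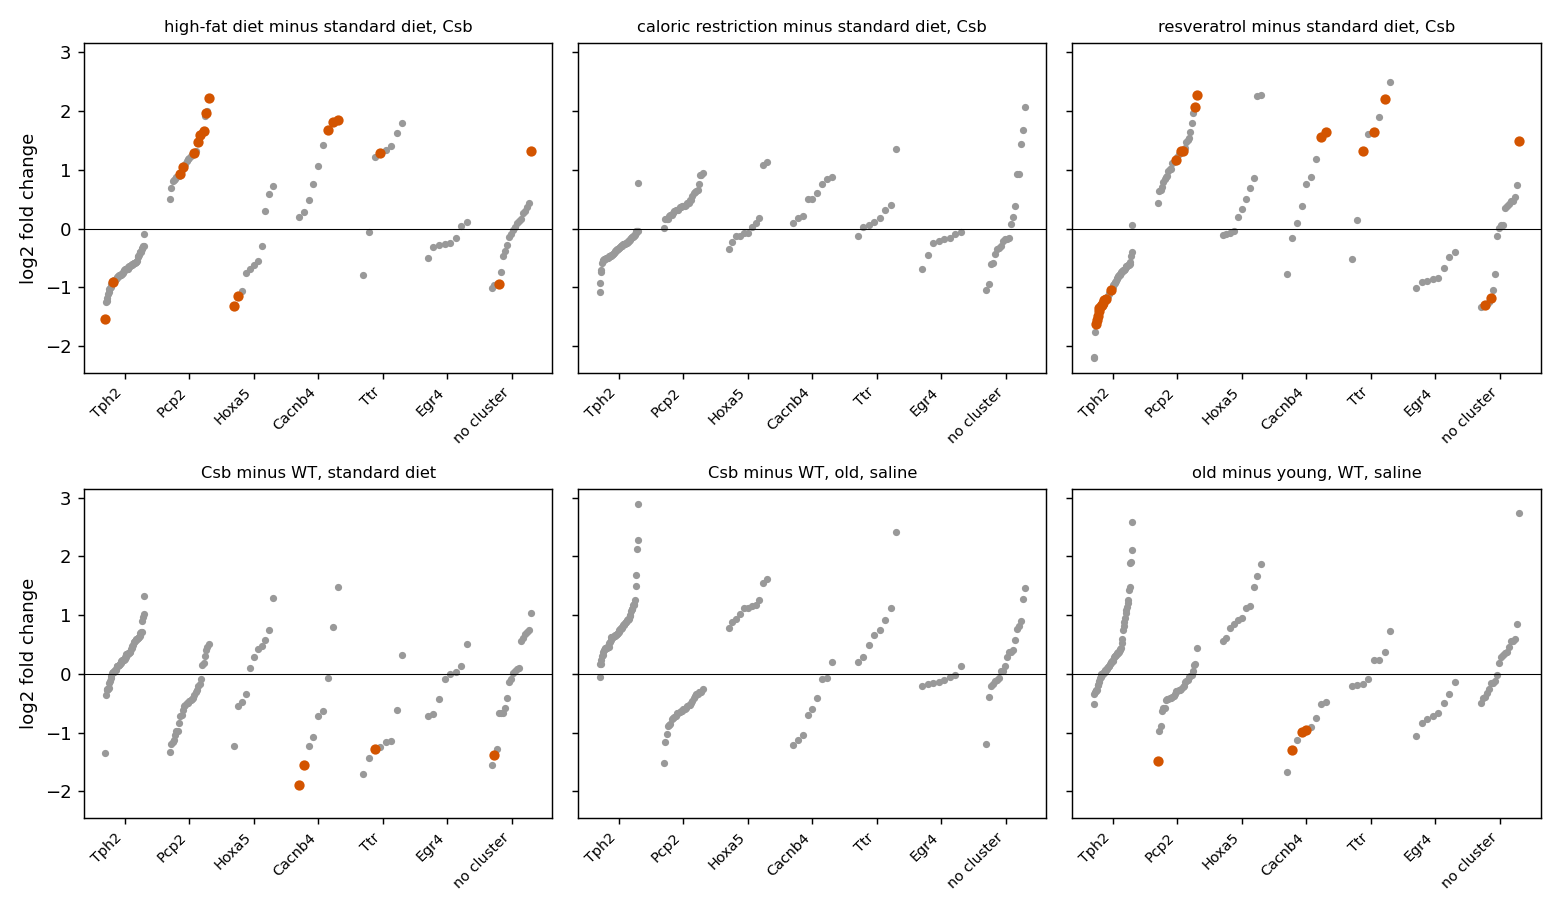
Log2 fold changes of the 147 members in 6 comparisons, by cluster, with called members in orange and the others in grey. High-fat diet and resveratrol in Csb mice have 18 and 24 called members (12.2% and 16.3%, against 17.1% and 13.5% of all probes tested). The Pcp2 cluster lies above 0 for all 31 probes in both, and also under caloric restriction in Csb mice, where no member was called. Probes of a cluster vary together and these comparisons share the Csb standard-diet arrays, so this common sign is a description.

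Caloric restriction in Csb mice gave no called member by limma, with 6 at an unadjusted p under 0.05, against 0.0873% of all probes called. No member was called under the 9 alternatives, and at most 1 when an array was left out. The lowest adjusted p belonged to Slc4a1, with a lowest, median and highest level of 7.47, 9.46 and 10.56 under restriction, against 5.47, 7.32 and 8.19 on the standard diet (2.07 ± 0.47, n = 6 each, limma adjusted p 0.0645). The other red cell genes did not pass either, with 1.67 for Alas2 (limma adjusted p 0.295) and 0.93 for Hbb-bt (limma adjusted p 0.335). The Pcp2 cluster had a median log2 fold change of 0.39 and the Tph2 cluster of -0.33.

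Genotype on the standard diet (Csb against WT) changed 4 members by limma, all lower (2.72%), against 13.8% of all 14883 probes, 6.55% higher and 7.25% lower. At an unadjusted p under 0.05 there were 17. Etv1 was at a lowest, median and highest level of 5.38, 8.12 and 9.14 in Csb mice for 1 probe, against 7.84, 9.88, 10.06 and 9.75 in WT mice. It fell by 1.55 ± 0.53 (n = 6 and 4, limma adjusted p 0.0443), and its other probe by 1.89 ± 0.55 (limma adjusted p 0.0184). With background intensity as a covariate neither was called, and the first turned to 0.32 (limma adjusted p 0.841). The Mbp member was at 9.49, 12.67 and 13.11 in Csb mice, against 12.57, 13.62, 13.49 and 13.73 in WT mice, and fell by 1.38 ± 0.44 (limma adjusted p 0.0313). Clic6 was at 7.71, 8.83 and 10.15 in Csb mice, against 9.09, 10.84, 10.46 and 10.96 in WT mice, and fell by 1.29 ± 0.44 (limma adjusted p 0.0439).

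The genotype groups overlapped for each of these probes, and no call held in each of the 10 fits without 1 array. Of 4 called members, 2 were left without Csb standard-diet replicate 1, 0 without Csb replicate 3 or without WT replicate 2, 3 or 4, and 9 and 10 were called without Csb replicate 4 and WT replicate 1. Fitting only the 2 groups called 0. With background intensity as a covariate 2 members were called, but none of the 4 called in the main fit. Mean background was 83.3 in Csb and 71.6 in WT standard-diet arrays. Choroid plexus probes summed to 102.8 to 136.7 in Csb and 109.004 to 144.9 in WT standard-diet arrays. The sum includes 5 members, the called Clic6 among them, so it is not independent of that call. What part background and these probes have in the calls was not tested.

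In the injection arm, old Csb against old WT mice after saline gave no called member by limma, against 0.229% of all 13948 probes. At an unadjusted p under 0.05 there were 24 members, and 36 had groups that did not overlap with 3 arrays each, against 14.6% of all probes. None was called under any alternative. The lowest adjusted p was 0.202, for Car4, a carbonic anhydrase with a log2 fold change of -1.52. NR in old Csb mice, against saline, gave no called member either, where limma called 0% of all 13948 probes, with 20 members at an unadjusted p under 0.05 and 49 without overlap, against 14.4% of all probes. With array weights 6 members were called, and under the other alternatives 0. The smallest adjusted p was 0.285. Cacnb4 had the 4 levels 10.55, 10.62, 10.25 and 10.34 after NR, against 9.75, 9.66 and 8.97 after saline.

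Age in WT mice after saline changed 4 members by limma, all lower in old than in young mice (2.72%), against 1.3% of all 13948 probes, 0.538% higher and 0.76% lower. Zic2 was at 8.91, 8.60 and 9.56 in old mice, against 10.01, 10.85, 10.32 and 10.88 in young mice. It fell by 1.49 ± 0.34 (SE, n = 3 and 4; limma adjusted p 0.0251). Zbtb7a, a zinc finger repressor, was at 8.43, 7.52 and 6.85 in old mice, against 8.61, 9.09, 9.09 and 8.81 in young mice. It fell by 1.30 ± 0.28 (limma adjusted p 0.0197). Cacnb4 fell by 0.99 ± 0.23 (limma adjusted p 0.0312) and Ddx6 by 0.96 ± 0.21 (limma adjusted p 0.0216).

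Old and young groups did not overlap for any of these 4 genes, 3 of which belong to the Cacnb4 cluster. In all 11 members had groups without overlap, against 14.5% of all 13948 probes. The count of 4 was 2, 0 and 1 without old replicates 1, 2 and 3, and 7, 0, 1 and 0 without young replicates 1 to 4. It was 33 with array weights, 2 without the filter on dim probes and 0 without the arrays that stood out, among them old replicate 3 and young replicate 4. With only the 2 groups fitted 2 members were called, but none of these 4 genes.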

How the data were processed

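RNA was extracted from cerebellum with TRIzol and read on 71 arrays, per the labels' protocols. The deposited table gives for each probe and array an average intensity on a linear scale and a detection p-value; the intensity is not normalized, per the file headers. The authors' second deposited table holds a score per probe, the z-score of the log intensity within each array as deposited, which differs from the z-score computed here by at most 5e-10. Per the submitters' processing notes GenomeStudio 1.9.0 was used. Earlier steps, chip positions and scan dates: not given in the sources used here. The table had 0 sample columns that were not used.

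Probes were named through the platform annotation (23978 with 1 gene symbol, 0 with several, 1719 with none). Members were found as described above. All levels are log2 values from the neqc function of limma 3.58.1 in R 4.3.3 (normexp background from detection p-values, quantile normalization, offset 16), per arm. Levels of the 2 arms were normalized separately and are not compared by a test. Probes detected at p under 0.01 on as many arrays as the smallest group holds entered lmFit and eBayes with all 8 groups of an arm. The number of arrays limits the precision. Members, marker lists and comparisons were chosen with earlier results of these data known. Named genes are the 10 most variable members, the 6 closest to each cluster, up to 5 called per direction and comparison, those on a marker list, and those at the limit. Others (Vgf under resveratrol, the red cell genes under caloric restriction, Car4, Sh3glb2, Actb and gene pairs) were chosen after their values were seen. The fit was tried on simulated data with independent noise for each probe. This does not cover probes that vary together or single outlying arrays, which the members hold.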

Additional observations from a re-analysis of the deposited data

Results flagged for a closer look

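In 192 groups of 4 to 7 arrays, over the 6 cluster means and the 10 most variable members, the highest or lowest array was tested by Dixon's ratio, which chance passes in about 1 of 20 groups. It was passed 25 times. The members were chosen for large SDs within groups, so this number is a description and cannot be set against chance. All values are log2 levels, and no explanation was tested.

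Cluster means were lowest, and far from the rest of the group, for the Tph2 cluster on old WT NR replicate 3 (7.01) and young WT NR replicate 1 (7.26), and for the Hoxa5 cluster on Csb high-fat replicate 6 (6.63). The same array was low in the Ttr cluster (7.13). WT standard-diet replicate 1 was low in the Pcp2 (7.75) and Cacnb4 (7.74) clusters. Csb resveratrol replicate 1 (7.42) and WT resveratrol replicate 1 (7.94) were low in the Cacnb4 cluster, and young WT NR replicate 2 in the Egr4 cluster (8.92).

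Of single genes, Ttr was low on Csb high-fat replicate 6 (9.29), WT standard-diet replicate 1 (11.03) and young WT saline replicate 4 (6.39). Pcp2 was low on Csb caloric restriction replicate 6 (7.68) and WT standard-diet replicate 1 (6.14). Old WT NR replicate 3 was low in both Tph2 (6.06) and Slc6a4 (4.58). Slc6a4 was high on WT high-fat replicate 4 (7.19), and Cartpt on WT high-fat replicate 3 (8.21). Nrgn was low on WT caloric restriction replicate 2 (6.20).

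Lcn2 was high on Csb high-fat replicate 7 (10.69), WT resveratrol replicate 5 (9.79), WT standard-diet replicate 4 (11.14), old WT NR replicate 5 (6.83) and young WT saline replicate 4 (4.99). On this last array and on the other 3 of its group Lcn2 was not detected, so the order of these 4 values has no meaning. S100a8 was high on old Csb NR replicate 3 (8.89).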

How the results depend on the processing

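Of the 147 members, the rule kept 87 in the injection arm alone, lost at most 12 when a group was left out and 36 without the arrays that stood out, and kept 99 with the median absolute deviation. The median absolute correlation was 0.545 in the injection arm alone. Counts of called members moved by over 1.5 times as follows. For genotype on the standard diet (4) the count was 0 with only the 2 groups fitted, 7 with array weights and 2 with background intensity as a covariate. The 2 called with that covariate were not among the 4 of the main fit. For high-fat diet in Csb mice (18) it was 10 without the filter on dim probes, 7 with only the 2 groups, 10 with the replicate block, 3 without the arrays that stood out and 2 with the background covariate. For resveratrol in Csb mice (24) these counts were 14 with only the 2 groups, 5 without the arrays that stood out and 1 with the background covariate. For NR in old Csb mice (0) it was 6 with array weights. For age in WT mice (4) it was 2 without the filter on dim probes, 2 with only the 2 groups, 33 with array weights and 0 without the arrays that stood out. The 2 called with only the 2 groups were not among the 4 of the main fit. Leaving out 1 array gave 0 to 10 for genotype on the standard diet, 3 to 30 for high-fat diet, 0 to 1 for caloric restriction, 10 to 38 for resveratrol, 0 to 0 for genotype in old mice and for NR, and 0 to 7 for age. The replicate block gave 5 for genotype on the standard diet, 25 for resveratrol and 4 for age. Of pairs of same-numbered arrays from different groups, 34.4% (diet) and 41.1% (injection) correlated over 0.1, against 36.6% and 35.1% with different numbers. The median correlation was -0.009 and 0.037, against -0.008 and -0.012. These shares are a description and cannot exclude pairing. The numbers used are those of the titles. The sample names carry other numbers for some arrays, and pairing by those was not tested. With the background covariate 1 Etv1 probe turned to 0.32 for genotype on the standard diet and the other to -0.11 for resveratrol. Of the named genes under alternatives, 380 values kept their side of the threshold, 188 lost it and 2 turned round. The fit to the deposited z-scores is counted under 2 names here. Leaving out the stand-outs and the background covariate were added after seeing the data. The cause was not tested, and signal near background limits Slc6a4, Lcn2 and Hoxa5, which 18, 25 and 11 arrays did not detect.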
